A study of Mus musculus with 4 samples.

Results

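Foxp3 regulatory T cells (Treg cells) were examined in the bone marrow of 5TMM mice, in which 4 single-cell RNA libraries held 80 such cells among 39743 cells. A cell was counted as a Foxp3 cell when it had at least 1 UMI of Foxp3, at least 1 UMI of Cd3d, Cd3e or Cd3g, no UMI of Cd8a or Cd8b1, and at most 1 UMI of the neutrophil genes Mmp8, Mmp9 and Cxcr2. A UMI is a molecular tag that marks a captured RNA molecule. The 1449 other cells with a CD3 UMI that passed the same neutrophil gate served as the comparison group and are called other CD3 cells. The 5TMM model is an immunocompetent C57BL/KawRij mouse that received 5TGM1-luc myeloma cells at 6 weeks of age. All 4 mice bore tumors, and 3 weeks after injection 2 mice received vehicle and 2 mice received 10 mg/kg purinostat mesylate (PM), an inhibitor of class I and IIb histone deacetylases. Marrow was collected 24 h later, after lysis of erythrocytes, and the libraries are named vehicle 1, vehicle 2, PM 1 and PM 2. Each library is taken as 1 mouse, which the labels do not state, so that the tests measure the spread between libraries. With 2 mice in a group, an exact permutation test cannot give a p-value below 0.333.

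Treg cells are CD4 T cells that restrain other lymphocytes, and the transcription factor Foxp3 holds their program in place. They consume IL-2 through a high-affinity receptor that contains CD25 (Il2ra), and they use CTLA-4 to strip costimulatory ligands from antigen-presenting cells. Bone marrow is known as a site where Treg cells gather and are retained, and in myeloma they are studied because they can blunt antitumor immunity.

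The label was checked with genes that the gate did not use. Il2ra was detected in 61.2% of the Foxp3 cells and in 9.80% of the other CD3 cells. Ikzf2, which encodes the Treg transcription factor Helios, was detected in 90.0% and 39.1%. Ctla4 was detected in 63.8% and 4.97%. All 3 genes were present in 30 Foxp3 cells (37.5%) and in 0.759% of the other CD3 cells, and only 1 Foxp3 cell had none of them. Cd4 was detected in 38 Foxp3 cells (47.5%). Each of Il2ra, Ikzf2 and Ctla4 was thus found in most Foxp3 cells. Foxp3 lies on chromosome X (7573644 to 7595245, plus strand), Il2ra on chromosome 2 (11642807 to 11693193, plus strand), Ikzf2 on chromosome 1 (69531214 to 69687245, minus strand) and Ctla4 on chromosome 1 (60887000 to 60915832, plus strand), in GENCODE M21 coordinates on GRCm38.

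Many members lay at the edge of the gate. Of 110 kept cells with a Foxp3 UMI, 16 had no CD3 UMI, 1 had a CD8 UMI and 13 failed the neutrophil gate, 4 of them with exactly 2 neutrophil UMIs. Of the 80 members, 29 had 1 Foxp3 UMI, 27 had 2 and 24 had 3 or more, with a highest count of 7. At least 2 of Il2ra, Ikzf2 and Ctla4 were detected in 72.4%, 85.2% and 79.2% of these classes, against 31.2% of the 16 cells without a CD3 UMI. The 13 cells turned away by the neutrophil gate had these genes in 76.9% of cases, and neutrophil marker genes made up a median of 234 per mille of their UMIs. Of these 13 cells, 12 came from PM mice and 1 from a vehicle mouse. Free RNA in droplets can give a cell a UMI that it did not make. A Foxp3 UMI was found in 8.71% of CD8-negative CD3 cells (median 3301 UMIs), in 0.164% of CD8-positive CD3 cells (4128 UMIs), in 0.0214% of neutrophils (4897 UMIs) and in 0.0271% of B cells (2515 UMIs). The share in CD8-negative CD3 cells was thus far above the level in classes that should lack the gene.

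Depth was uneven among the mice. The whole libraries held 86052982, 69828595, 109447030 and 74388936 UMIs in vehicle 1, vehicle 2, PM 1 and PM 2. The Foxp3 cells numbered 14, 12, 31 and 23, had median depths of 1940.5, 3006.5, 2300 and 2593 UMIs per cell, and summed to 28237, 108156, 130280 and 94509 UMIs. Vehicle 1 was therefore the shallowest sum. Other CD3 cells were deeper, with medians of 3505, 4043.5, 3548.5 and 3929 UMIs. Among the Foxp3 cells, 8 had over 8000 UMIs, and these held 51.4% of all Foxp3 cell UMIs, with none in vehicle 1 and 77.8% of the sum in vehicle 2. In 2 of them, both from PM 1, neutrophil marker genes made up 313 and 325 per mille of the UMIs. Monocyte marker genes made up 12.6 and 10.9 per mille of these 2 cells. They made up 12.5 per mille of a vehicle 2 cell of 48319 UMIs and 25.1 of a PM 1 cell of 10757 UMIs. In the remaining cells of over 8000 UMIs they made up 0.0525 to 0.852 per mille. The doublet caller, which recovered 52.3% to 63.0% of simulated doublets, marked none of the 80 cells. Whether the cells with these markers were doublets was not tested. Values of several gene lists are given with and without cells of over 8000 UMIs. The same barcode occurred in another library for 1 of the 80 Foxp3 cells and for 11 of the 1449 other CD3 cells.

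**Figure D1:**
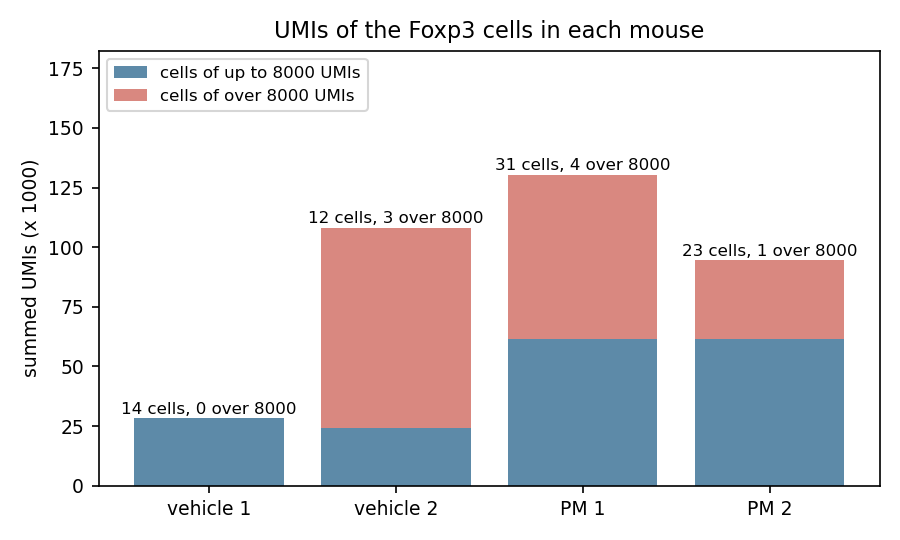
Bars give the summed UMIs (in units of 1000) of the Foxp3 cells in each mouse, split into cells of up to 8000 UMIs and cells of over 8000 UMIs. Vehicle 1 had the lowest sum and no cell of over 8000 UMIs, while 3 cells held most of the sum in vehicle 2.

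The first comparison asked whether the share of Foxp3 cells differed between PM and vehicle mice. Foxp3 cells made up 0.151% of kept cells in vehicle 1 (exact 95% binomial interval 0.0827% to 0.254%), 0.153% in vehicle 2 (0.0793% to 0.268%), 0.232% in PM 1 (0.157% to 0.329%) and 0.248% in PM 2 (0.157% to 0.372%). Both PM values were above both vehicle values, although the intervals, which cover counting error only, overlapped. The means were 0.152% ± 0.00153 for vehicle and 0.240% ± 0.0117 for PM (SD, n = 2 each), with an exact two-sided permutation p = 0.333, the smallest that this design can give. Thinning of each cell to 1000 UMIs gave means of 0.0599% and 0.114%.

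Among CD3 cells that passed the neutrophil gate, the order turned around. Of the CD3 cells, Foxp3 cells were 6.28%, 5.88%, 4.73% and 5.15% in vehicle 1, vehicle 2, PM 1 and PM 2, so that both PM values were below both vehicle values. The means were 6.08% ± 0.280 and 4.94% ± 0.292 (SD, n = 2 each; exact permutation p = 0.333). Of the CD8-negative CD3 cells they were 8.54%, 8.96%, 8.18% and 9.50%, and here the groups overlapped (8.75% ± 0.296 and 8.84% ± 0.937). The denominators moved too. All CD3 cells through the gates were 2.41% and 2.61% of kept cells in vehicle mice and 4.89% and 4.82% in PM mice, and CD8-positive CD3 cells were 0.637% and 0.894% against 2.06% and 2.21%. CD8-negative CD3 cells without Foxp3 were 1.62% and 1.56% against 2.60% and 2.36%. The direction of the share among CD3 cells depended on the gate. The log2 ratio of the PM to the vehicle mean was −0.30 as given, and stayed negative with 2 UMIs of Foxp3 required (−0.21), with stricter cell filters (−0.25), without called doublets (−0.28) and without cells of over 8000 UMIs (−0.29). It was 0.12 when no neutrophil UMI was allowed, 0.31 when a Cd4 UMI was required of Foxp3 cells, and −0.003 after thinning.

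**Figure D2:**
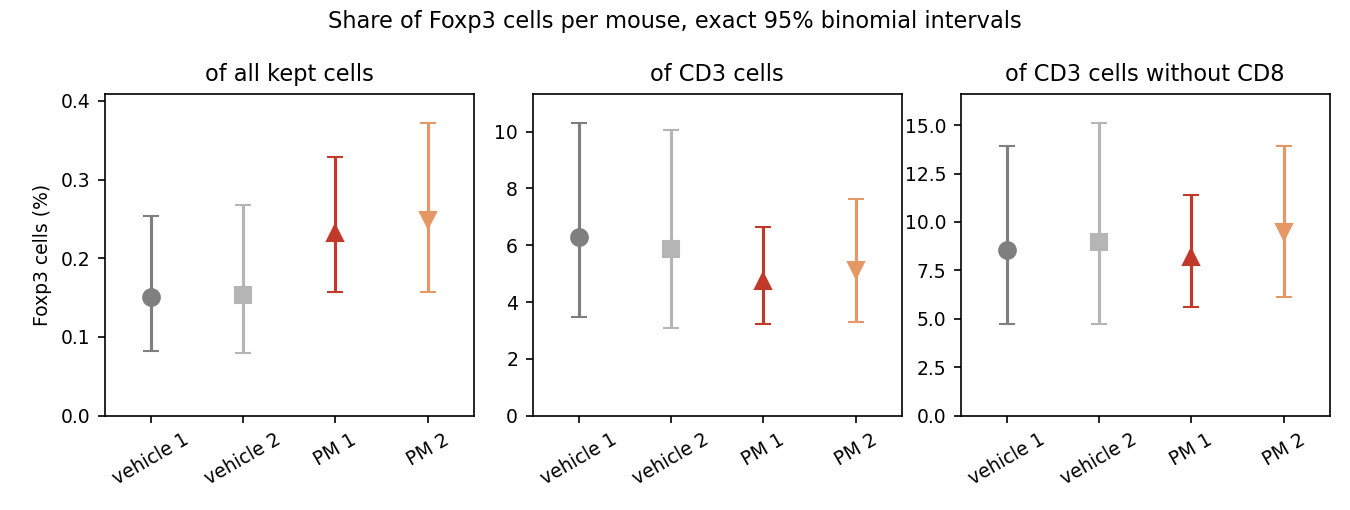
Points give the percentage of Foxp3 cells in each mouse among all kept cells, among CD3 cells and among CD3 cells without CD8, with exact 95% binomial intervals. Both PM mice lay above the vehicle mice among all cells, below them among CD3 cells, and among CD8-negative CD3 cells the groups overlapped. Only CD3 cells that passed the neutrophil gate were counted.

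The next comparison asked which genes set the Foxp3 cells apart from the other CD3 cells of the same mice. UMI counts were summed for each mouse and cell group and tested with edgeR's quasi-likelihood test with the mouse as a block, and calls required both an adjusted p (Benjamini-Hochberg) below 0.05 and a log2 fold change beyond 0.5 in either direction. Of 7578 genes tested, 123 were higher in Foxp3 cells (1.62%) and 191 were lower (2.52%), together 4.14%. The median log2 fold change over all genes tested was −0.08. The genes used in the gate were left out. CPM denotes counts of a gene scaled to a common total of UMIs (edgeR's unit for expression level), so that sums of different depth can be compared.

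Genes of Treg identity were far higher in Foxp3 cells. In a list of 21 such genes, 16 could be tested, of which 10 were higher and 1 was lower, with a median log2 fold change of 2.35. Ctla4 stood at 956, 249.6, 215 and 635 CPM in the Foxp3 cells of vehicle 1, vehicle 2, PM 1 and PM 2, and at 8.75, 14.2, 13.6 and 27.1 CPM in the other CD3 cells. Every Foxp3 sum was thus above every other CD3 sum, with a log2 fold change of 4.55 ± 0.31 (approximate SE from the F statistic of edgeR's test, with adjusted p = 3.41e-20). Ikzf4, which encodes Eos, a partner of Foxp3 in gene repression, stood at 70.8, 74.0, 107 and 222 CPM against 0.875, 0.836, 5.49 and 8.74 CPM. Its log2 fold change of 4.66 ± 0.48 was the largest rise among called genes that averaged 100 CPM or more in Foxp3 cells and rose in all 4 mice. The costimulatory receptor OX40 (Tnfrsf4) followed with 4.53 ± 0.33. Il2ra was measured at 496, 83.2, 338 and 476 CPM in Foxp3 cells and at 35.01, 21.7, 25.5 and 38.7 CPM in the other CD3 cells (log2 fold change 3.23 ± 0.30, adjusted p = 1.48e-14). Ikzf2 had the highest level of the list, at 4037, 1276, 1589 and 2825 CPM against 397, 277, 268 and 342 CPM (2.60 ± 0.21). Nrp1, a surface receptor common on Treg cells of thymic origin, rose by 3.16 ± 0.31 on the log2 scale, the folate receptor gene Izumo1r by 2.95 ± 0.35, Tnfrsf18 (GITR) by 2.20 ± 0.29, Dst by 2.50 ± 0.52 and Capg by 2.13 ± 0.32, the last in 3 of 4 mice. Cd4 was higher by 2.99 ± 0.34, and by 2.34 against CD8-negative cells alone. The list was as clear without cells of over 8000 UMIs, where 12 of 16 tested members were higher.

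The IL-2 receptor chains Il2ra and Il2rb moved in opposite directions, while the chain Il2rg was not called (log2 fold change 0.46). Il2rb, the beta chain shared with the IL-15 receptor, was the 1 member of the identity list that was lower, at 956, 148, 299 and 454.98 CPM in Foxp3 cells against 1042, 630, 594 and 738 CPM (log2 fold change −1.13 ± 0.25, adjusted p = 9.49e-04). Each Foxp3 sum was below the other CD3 sum of its own mouse, although the ranges of the cell groups overlapped. The call was lost without vehicle 2 (−0.82, adjusted p = 0.0554), with DESeq2 (adjusted p = 0.0543), with a Cd4 UMI required of Foxp3 cells (0.181) and without the mouse block (0.131). Of 13 tested genes of IL-2 and STAT5 signaling, 2 were higher (Il2ra and Cish, a feedback inhibitor of the pathway) and 2 were lower (Il2rb and Bcl2), with a median of 0.10. Cish rose by 1.35 ± 0.30, and its call was lost without PM 2 (1.21, adjusted p = 0.0840).

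**Figure D3:**
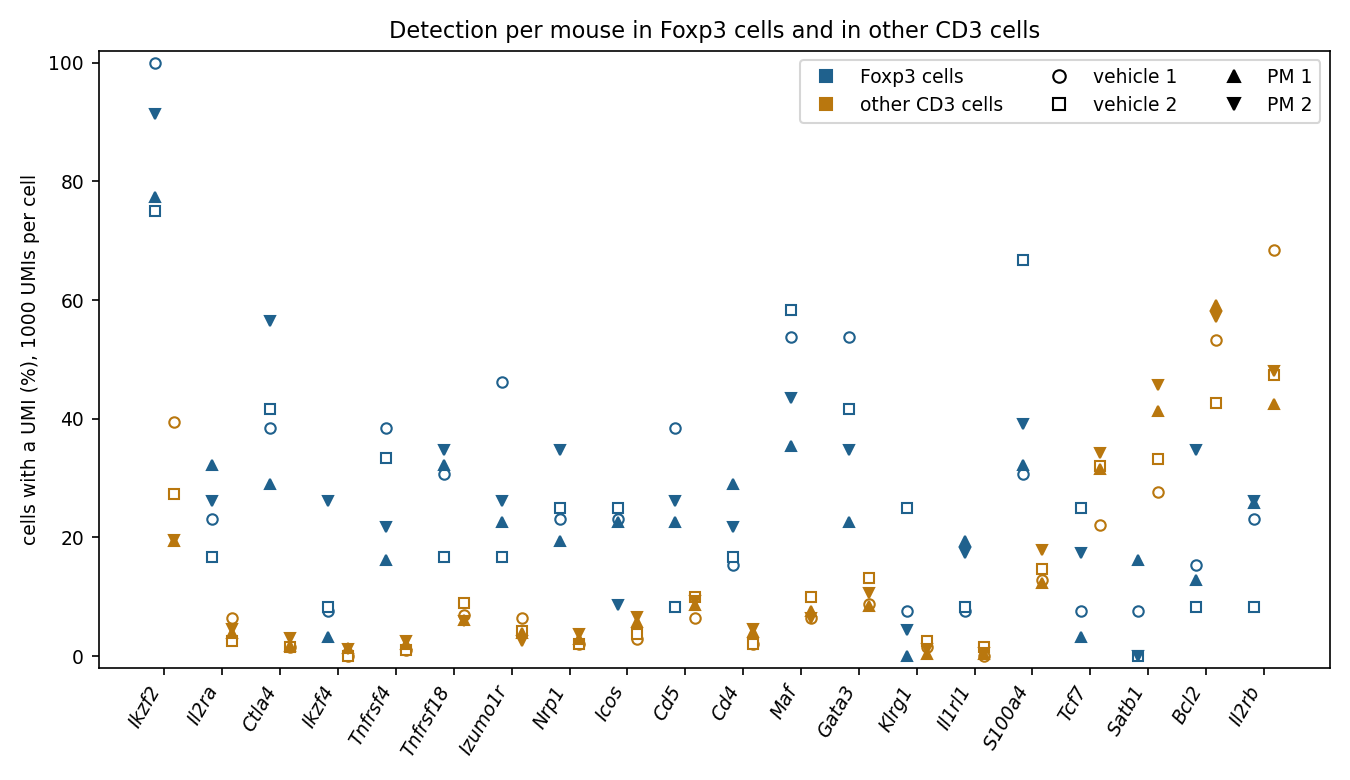
Each symbol is the percentage of cells with at least 1 UMI of a gene in 1 mouse after every cell was thinned to 1000 UMIs, with Foxp3 cells in blue and other CD3 cells in brown, open for vehicle and filled for PM. Ikzf2, Il2ra, Ctla4, Tnfrsf4 and Nrp1 were detected more often in the Foxp3 cells of each mouse, and Bcl2 and Il2rb less often, while Cd5 in vehicle 2 and Klrg1 in PM 1 were not detected more often.

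Receptors that tune T cell activation were also higher. Of 15 tested checkpoint and costimulation genes, 8 were higher and 1 was lower (median 1.08). Besides Ctla4, Tnfrsf4 and Tnfrsf18, the inducible costimulator Icos stood at 637, 166, 315 and 391 CPM against 27.1, 35.1, 48.1 and 44.6 CPM (2.92 ± 0.29, adjusted p = 1.09e-13). Icos lies beside Ctla4 on chromosome 1 (60977927 to 61000320). Cd5, a receptor that dampens T cell receptor signaling, rose by 1.97 ± 0.29 and Prdm1 (Blimp-1) by 2.32 ± 0.47. The remaining calls were weak: Tnfrsf1b (1.08 ± 0.31) and Cd6 (0.98 ± 0.28) were no longer called without PM 2 (adjusted p = 0.337 and 0.297) or without PM 1 (0.130 and 0.0527), Tnfrsf1b also not without vehicle 2 (0.178) and Cd6 also not without vehicle 1 (0.203). Cd226, an activating receptor, was lower (−1.34 ± 0.35) and lost its call without vehicle 1, vehicle 2 or PM 1 (0.0626, 0.104 and 0.0682). Lag3 and Tigit were too sparse to compare. A Lag3 UMI was found in 0 of the 80 Foxp3 cells, which allows a share of cells with a UMI of up to 3.75% and does not limit the share of expressing cells, and in 1.52% of the other CD3 cells. A Tigit UMI was found in 1.25% and 0.276%.

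Suppressive effector genes showed no common direction. Of 10 tested genes, 2 were higher (Ctla4 and Lgals1) and 2 were lower (Prf1 and Gzma), with a median of 0.45. Without cells of over 8000 UMIs, 1 of 7 was higher and 1 was lower, with a median of 0.37. Lgals1, which encodes galectin-1, stood at 248, 1627, 422 and 709 CPM against 176, 317, 285 and 204 CPM (1.26 ± 0.27). Its call was lost without vehicle 2 (adjusted p = 0.115), without PM 2 (0.115) and without cells of over 8000 UMIs (log2 fold change 0.37). Tgfb1 had 142, 166, 115 and 212 CPM against a mean of 123 CPM in the other CD3 cells, a difference that did not pass (0.19 ± 0.30, adjusted p = 0.900). Il10 had no UMI in the Foxp3 cells and 1 UMI in the other CD3 cells, too few for a comparison. The granule genes Prf1 and Gzma also had none, and Gzmb was found in 1 cell.

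Of 23 tested effector and memory genes, 11 were higher and 0 were lower (median 1.26). These were Icos, S100a4, Maf, Klrg1, Il1rl1, Gata3, Rora, Itgb7, Prdm1, Ccr6 and Lgals1. S100a4, a calcium-binding protein of activated T cells, stood at 779, 1664, 1205 and 1312 CPM against 143, 278, 264 and 273 CPM (2.19 ± 0.23). The transcription factor Maf rose by 3.04 ± 0.31 and Gata3 by 1.82 ± 0.28. Il1rl1, the receptor for IL-33, was higher by 3.57 ± 0.51 and Klrg1, a marker of terminally differentiated Treg cells, by 3.44 ± 0.50 (chosen after its values were seen). The median of the list was 0.59 without cells of over 8000 UMIs, with 10 higher and 2 lower.

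Of 14 tested resting and homing genes, 0 were higher and 4 were lower, with a median of −0.66. Against CD8-negative cells alone 2 of 14 were lower, with a median of −0.32. Satb1, a chromatin organizer of early and naive T cells, stood at 70.8, 27.7, 115 and 95.2 CPM against 274, 363, 526 and 652 CPM (−2.76 ± 0.33, adjusted p = 1.51e-10). Tcf7, the factor TCF-1 of naive and memory T cells, followed with −2.16 ± 0.32. For both genes every Foxp3 sum was below every other CD3 sum. The chemokine receptor gene Ccr7 (−2.05 ± 0.58) was weaker, since it was not called against CD8-negative cells alone (−0.94), without PM 1 (adjusted p = 0.335) or without PM 2 (0.306). In single cells, Klrg1 or Il1rl1 was detected in 28.8% of Foxp3 cells and 3.66% of other CD3 cells.

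Bcl2 was among the clearest decreases. This survival gene stood at 106, 46.2, 138 and 317 CPM against 695, 582, 907 and 992 CPM (−2.67 ± 0.29, adjusted p = 4.99e-12), so that the cell groups did not overlap. It was detected in 36.2% of Foxp3 cells and 80.8% of other CD3 cells. Bcl2l11, which encodes its opponent Bim, was also lower (−1.78 ± 0.41), and that call was lost without vehicle 1 (adjusted p = 0.0604), without PM 2 (0.115), with DESeq2 (0.0621) and without the mouse block (0.0660). These were the 2 calls among 15 tested genes of apoptosis and survival, whose median was 0.34, and 0.02 over 13 genes without cells of over 8000 UMIs.

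Genes of cytotoxic and natural killer cells were much lower in Foxp3 cells. Klrc1 had no UMI in any Foxp3 sum and 366, 231, 161 and 276 CPM in the other CD3 cells, and against a floor of 3 counts over all Foxp3 cells it was at least 28.4-fold lower, with the counts of each cell group pooled over the mice. On the same floor Eomes was at least 17.8-fold lower, Klrc2 at least 16.5-fold, Klre1 at least 15.2-fold, Klrb1c at least 14.2-fold, Klra7 at least 13.7-fold, Xcl1 at least 12.96-fold and Spry2 at least 10.2-fold. Klrd1 had 1 UMI in the Foxp3 cells, a level 94.9-fold lower with a counting interval of 17.03 to 3747, Cd7 had 1 UMI (38.3-fold, 6.88 to 1515) and Klrk1 had 3 UMIs (27.4-fold, 9.39 to 133). Of 11 tested cytotoxic and NK genes, 10 were lower and 0 higher, with a median log2 fold change of −3.83 when genes without a UMI were set at their bound. The gate removed CD8 cells from the Foxp3 cells alone. Against CD8-negative cells, all 9 cytotoxic and NK genes tested were lower. All 4 tested gamma delta T cell genes were also lower, with a median of −3.29 at their bound.

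**Figure D4:**
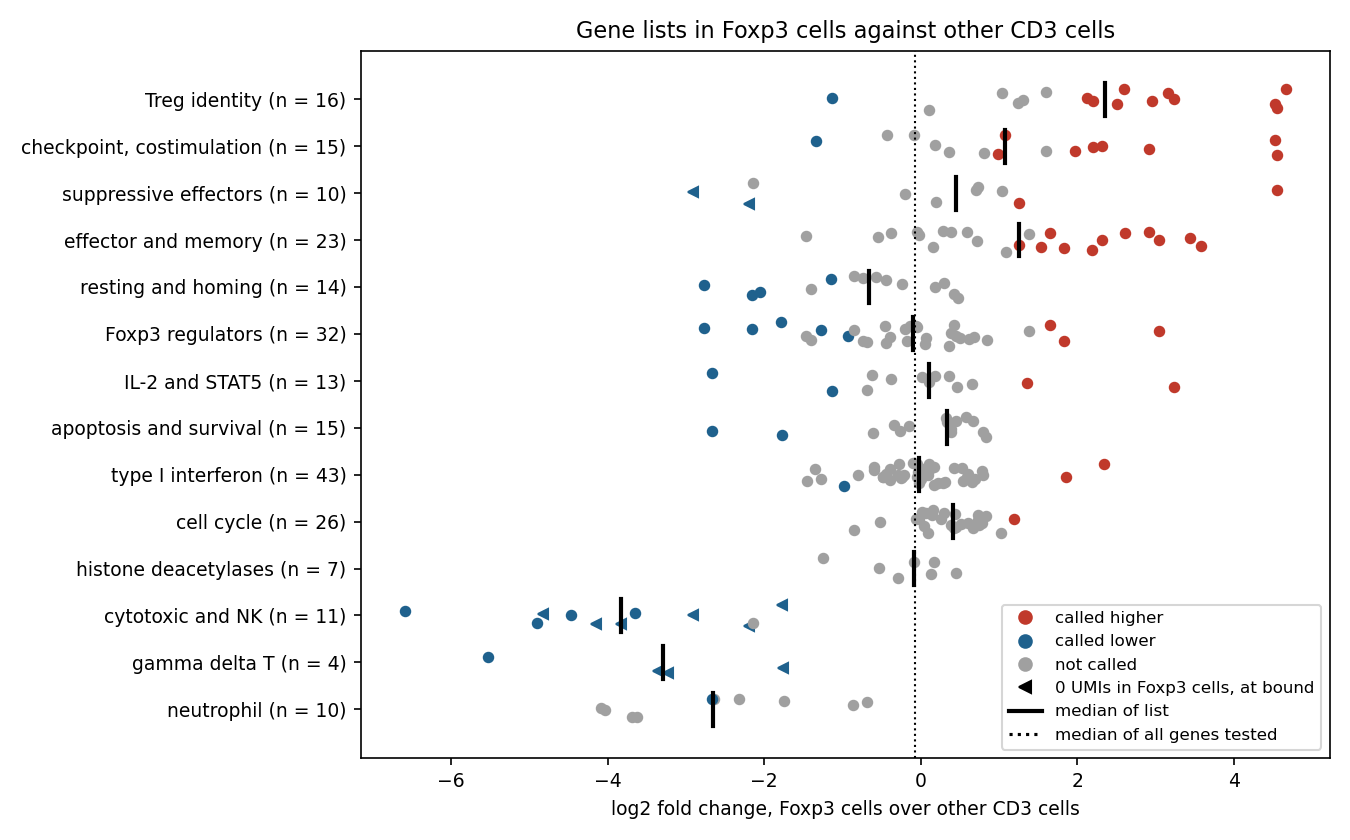
Each point is the log2 fold change of a tested gene between Foxp3 cells and other CD3 cells, grouped by list, with called genes in red or blue, genes without a UMI in Foxp3 cells as triangles at their bound, bars at list medians and a dotted line at the median of all genes tested. Treg identity genes lay highest and cytotoxic genes lowest, and the neutrophil median of −2.66 was −0.45 without cells of over 8000 UMIs.

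Markers of other lineages differed between the cell groups. Neutrophil marker genes made up 3.33, 3.96, 98.3 and 1.52 per mille of the Foxp3 cell UMIs in vehicle 1, vehicle 2, PM 1 and PM 2, and 71.7, 59.8, 45.3 and 34.0 per mille in the other CD3 cells. Without cells of over 8000 UMIs these values were 3.33, 1.92, 5.35 and 2.03 against 2.39, 1.65, 6.57 and 4.22 per mille. All 10 neutrophil genes had UMIs in the Foxp3 cells, S100a9 the most, and 1 was lower. Without cells of over 8000 UMIs, 1 of 8 tested neutrophil genes was higher and 2 were lower. Jchain, the joining chain of secreted antibodies, was lower in Foxp3 cells (log2 fold change −6.52 ± 0.46, with 40.3 to 1559 CPM in the other CD3 cells), and 4 of 5 plasma and myeloma cell genes and 5 of 5 erythroid genes were lower. Without cells of over 8000 UMIs 0 of 4 plasma cell genes and 4 of 5 erythroid genes were called, and the erythroid median went from −3.53 to −1.97. Of the remaining marker lists, 1 of 7 monocyte genes and 1 of 4 dendritic cell genes were lower, 1 of 3 B cell genes was higher (Ighm), 1 of 2 genes of innate lymphoid cells, mast cells and basophils was higher (Il1rl1), and no platelet gene could be tested. Of 5 conventional naive T cell genes, 3 were lower, with 2 lower when cells of over 8000 UMIs were left out and 1 lower against CD8-negative cells alone. The part of these cells in the gene differences was not tested.

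The counts of the remaining lists stand beside 4.14% of all genes tested that were called in either direction. Among regulators of Foxp3, 3 of 32 tested genes were higher (Maf, Gata3 and Rora) and 5 were lower, with a median of −0.10. Against CD8-negative cells alone 5 of 31 were higher and 3 were lower (median −0.03). The counts were 3 and 7 of 30 without cells of over 8000 UMIs. Of 43 type I interferon genes 2 were higher and 1 was lower (median −0.03), with 4 and 2 of 36 without those cells. Of 20 genes of early T cell receptor signaling 4 were higher and 1 was lower (median 0.01), with 4 and 2 of 19 without those cells (median 0.21). T cell receptor and CD3 genes split into 4 higher and 5 lower of 17 (median 0.06), the lower ones led by gamma delta constant genes. Against CD8-negative cells alone 6 were higher and 4 were lower (median 0.43). Their median was −0.20 without cells of over 8000 UMIs. Marrow retention genes had 1 higher and 2 lower of 12 (median 0.08), and 1 higher and 4 lower of 11 without those cells (median −0.28). Glucocorticoid response genes had 1 higher of 10, and 2 higher and 1 lower of 9 without those cells. Genes of handling stress had 1 higher and 2 lower of 20, and 1 higher and 4 lower of 19 without them. Of 7 tested histone deacetylase and sirtuin genes, 0 were called (median −0.09). Hdac1 stood at 142, 157, 146 and 201 CPM in the Foxp3 cells. Of 26 cell cycle genes 1 was higher (median 0.41), and 84.0% of the cell cycle UMIs of Foxp3 cells came from the 8 cells of over 8000 UMIs, without which the median was −0.33. Mki67 or Top2a was detected in 16 of the 80 Foxp3 cells and in 17.8% of other CD3 cells.

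The last comparison asked whether PM changed gene expression within Foxp3 cells. Of 2182 genes tested with edgeR's quasi-likelihood test, 0 were higher (0%) and 0 were lower (0%) in PM mice at the same thresholds. At an unadjusted p under 0.05 there were 19 higher and 9 lower genes, and with DESeq2 there were 5 and 2 and again no call. Single mice decided the count. Without vehicle 1, the shallowest sum, 11 genes were called higher and 26 lower, among them Il2ra (log2 fold change 2.36, adjusted p = 0.00928 in edgeR's test), Cd74 (2.97), Lamp1 (−2.15) and Ctsz (−2.07). By contrast, without vehicle 2 there was 1 higher and 0 lower, without PM 2 there were 7 higher and 0 lower, and without PM 1 there were none. Where a mouse was left out, the lone sum of its group was assumed to vary like the pair of the other group.

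Treg markers had no shared direction. Foxp3 itself, which chose the cells, stood at 885, 249.6, 499 and 593 CPM in vehicle 1, vehicle 2, PM 1 and PM 2. The PM and vehicle values overlapped for Il2ra (log2 fold change 0.85 ± 0.76), Ikzf2 (−0.13 ± 0.50) and Ctla4 (−0.33 ± 0.74), each with an adjusted p of 1.00 in edgeR's test. Of 12 tested identity genes 5 had a positive fold change, and the list median was −0.13 beside 0.03 over all genes tested. Checkpoint and costimulation genes had a median of 0.06. Without cells of over 8000 UMIs both medians changed sign, to 0.0317 over 10 identity genes and −0.13 over 9 checkpoint genes.

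The genes of smallest p in each direction did not pass, with an adjusted p of 1.00 for each in edgeR's test. Il1rl1 had 35.4 and 37.0 CPM in vehicle mice and 138 and 222 CPM in PM mice, and was detected in 1 of 14, 1 of 12, 9 of 31 and 5 of 23 cells. The PM values were above the vehicle values (log2 fold change 2.33 ± 0.64, unadjusted p = 0.00593). Ier5, an early response gene, had 35.4 and 92.5 against 215 and 296 CPM (1.81 ± 0.57), Cd74, the invariant chain of antigen presentation, 106 and 27.7 against 230 and 180 CPM (2.19 ± 0.71), and Bod1l 70.8 and 74.0 against 184 and 222 CPM (1.55 ± 0.54). Bcl2 had 106 and 46.2 against 138 and 317 CPM (1.89 ± 0.66). In the other direction, the lysosomal gene Lamp1 had 283 and 490 against 138 and 52.9 CPM (−1.88 ± 0.65) and the lysosomal protease gene Ctsz 106 and 268 against 46.1 and 74.1 CPM (−1.73 ± 0.62). The histone gene H2afj (−1.63 ± 0.63), Glipr1 (−1.47 ± 0.57) and AY036118 (−1.63 ± 0.60) followed. A difference of this size rests on 1 to 30 UMIs of a gene in a sum, except for Lamp1 in vehicle 2 with 53.

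**Figure D5:**
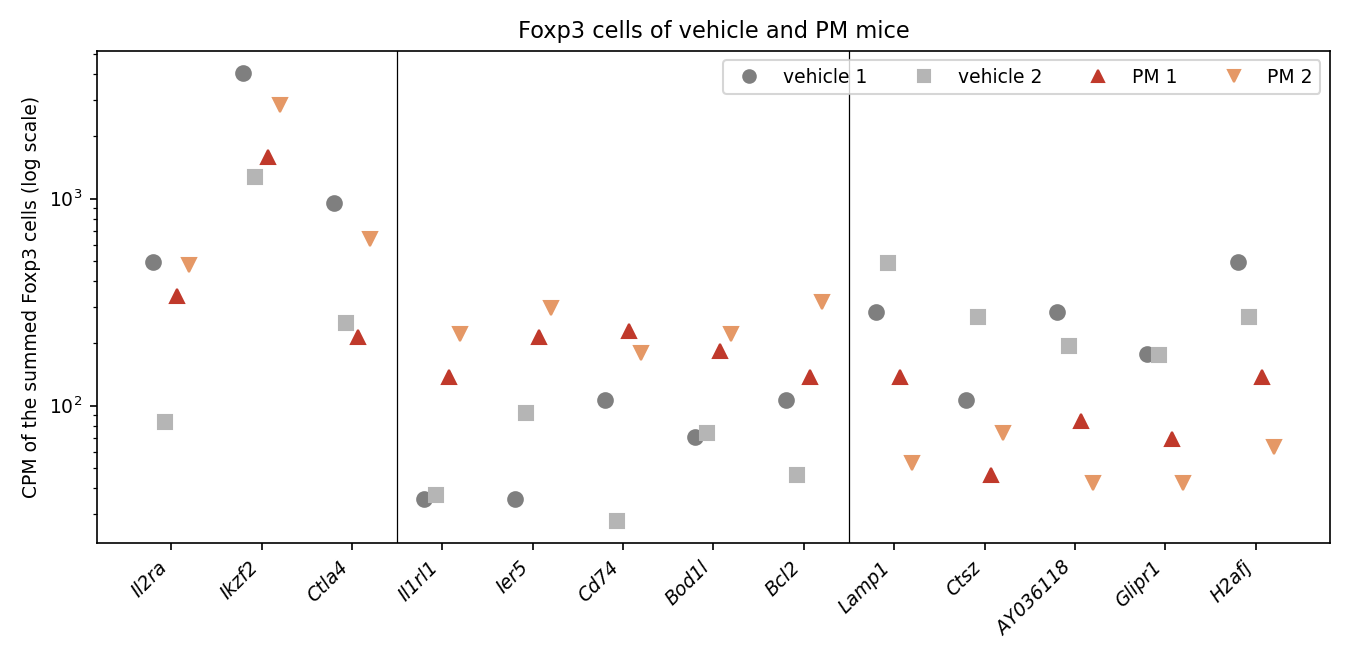
Symbols give the CPM (log scale) of each mouse's summed Foxp3 cells for 3 Treg markers on the left and for the 5 genes of smallest p in each direction. The Treg markers overlapped between the groups, and the other genes, chosen because their groups did not overlap, did not pass the test.

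The receptor for IL-7 was looked at after its values were seen. Il7r was detected in 57.1% and 50.0% of Foxp3 cells of vehicle mice and in 87.1% and 73.9% of those of PM mice, and in 15.4%, 16.7%, 48.4% and 47.8% after thinning to 1000 UMIs. Its summed level was 460 and 55.5 against 614 and 709 CPM (log2 fold change 1.76, adjusted p = 1.00 in edgeR's test). Without vehicle 1 the log2 fold change was 3.65, which rested on the 55.5 CPM of vehicle 2 as the only vehicle value. In the other CD3 cells Il7r had 152 and 268 against 400.3 and 418 CPM (0.94, adjusted p = 0.194). All 10 tested resting and homing genes, Il7r among them, had a positive fold change in Foxp3 cells of PM mice, with a median of 0.55 and 0 calls, beside 52.1% positive over all genes tested. The same list had 12 of 14 positive genes in the other CD3 cells, with a median of 0.46 and 1 call. Other lists had 0 calls in Foxp3 cells, with medians of 0.30 for IL-2 and STAT5 genes and −0.04 for effector and memory genes (0.30 and −0.07 without cells of over 8000 UMIs). Type I interferon genes had a median of 0.28, which was 0.08 without those cells, and cell cycle genes had −0.16, which turned to 0.23 over the 4 genes that could still be tested. The neutrophil markers had a median of 3.50, which was 0.34 without cells of over 8000 UMIs.

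The other CD3 cells gave more calls, and whether their greater depth was the reason was not tested. Of 9943 genes tested, 41 were higher (0.412%) and 66 were lower (0.664%) in PM mice, but against this 1 was higher and 1 lower when CD8-positive cells were left out, and 6 and 7 when cells of over 8000 UMIs were left out. The largest changes were ranked among called genes that averaged 100 CPM or more and moved alike in all 4 pairs. There, neutrophil genes such as Ltf (−1.41 ± 0.16) and Lcn2 (−1.33 ± 0.16) led the decreases, and Ifi27l2a (1.07 ± 0.16) and Satb1 (0.87 ± 0.17) led the increases. The neutrophil list had a median of −0.58 with 4 of 10 genes lower, and without cells of over 8000 UMIs it reversed to 1.17 with 1 higher and 0 lower. A test of the difference between the PM effects in the cell groups found 1 of 8620 genes higher (0.0116%) and 0 lower in Foxp3 cells (edgeR's quasi-likelihood test). At an unadjusted p under 0.05 there were 164 and 92 genes. Il1rl1 had a difference of 2.99 ± 1.07 on the log2 scale (unadjusted p = 0.00521, adjusted p = 1), and Rgs1, an inhibitor of chemokine receptor signaling, had 2.26 ± 0.60 (adjusted p = 0.405), with 3.71 and an adjusted p of 0.003 when vehicle 1 was left out. Ifitm6 (2.51 ± 0.74) and Pglyrp1 (2.19 ± 0.66) did not pass either. They had 36 and 132 UMIs in the Foxp3 cells of PM 1, against 1 to 19 in the other Foxp3 sums. The Pglyrp1 difference fell to 0.18 without cells of over 8000 UMIs and to 0.41 without PM 1. In the opposite direction Fam169b had −2.36 ± 0.68 (adjusted p = 0.413).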

How the data were processed

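The authors aligned 10x Genomics 3′ reads with Cell Ranger 6.0.1, per the file headers, and deposited UMI counts for 32285 genes as 1 matrix per library. The study's methods name the GRCm38 build and the labels GRCm39, and 32158 gene identifiers matched GENCODE M21 (GRCm38), from which positions were taken. Kept cells had 300 genes or more and no more than 20% mitochondrial UMIs. Doublets were scored in Python 3.11.15 against simulated pairs (2000 variable genes, 30 components) and were kept, being left out only as an alternative. The members and gene lists were chosen with earlier results of these data known.

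Counts were summed per library and cell group and tested with edgeR 4.0.16 (R 4.3.3), with DESeq2 1.42.0 as an alternative. The comparison of cell groups had the mouse as a block, and the PM comparisons had none. Genes were called at an adjusted p under 0.05 and an absolute log2 fold change over 0.5. The ± values of fold changes are approximate SEs, computed as the absolute log2 fold change over the square root of the F statistic. The fits were tested on simulated data. Genes of the identity, checkpoint and suppressive lists could be named in any comparison. Genes of the other lists were also named beside the counts of their list. Otherwise the largest called changes were named among genes that averaged 100 CPM or more and moved alike in all 4 mice or pairs, or, where fewer than 5 were called, the 5 of smallest p. For Foxp3 cells against other CD3 cells, this average was that of the cell group with the higher level. Il7r, Klrg1 and Cd63 were chosen after their values were seen. Intervals are exact 95% binomial or Poisson intervals and cover counting error only, and 3 counts served as the floor for genes without a UMI. Alternatives changed the cell filter, the gates, doublets, the comparison cells, the normalization, the low-count filter and the block, and left out each library. The exclusion of cells of over 8000 UMIs and the crossed pairing were chosen after seeing the data. The values of 1 gene of the resting and homing list are not reported here.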

Additional observations from a re-analysis of the deposited data

Results flagged for a closer look

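Cd63, which encodes a tetraspanin of late endosomes and was chosen after its values were seen, was the 1 gene whose PM effect differed between Foxp3 cells and other CD3 cells by a test of the difference itself (log2 difference 10.53 ± 2.10, adjusted p = 0.00468 in edgeR's quasi-likelihood test). It had 0, 0, 34 and 2 UMIs in the Foxp3 cells of vehicle 1, vehicle 2, PM 1 and PM 2, and 170, 173, 143 and 75.9 CPM in the other CD3 cells. Because both vehicle sums were at 0, the fitted value is no bound and its ± value is no usable SE. No gene was called when cells of over 8000 UMIs were left out, where Cd63 could not be tested, nor with DESeq2, with 2 UMIs of Foxp3 required, with Cd4 required or without PM 1. Cd63 was also not among the 3 genes called without vehicle 1, the 4 without vehicle 2 or the 2 with 0 neutrophil UMIs, and of the libraries left out in turn, the call was kept without PM 2.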

How the results depend on the processing

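Foxp3 cells against other CD3 cells gave 83 lower genes with DESeq2 and 123 with no replicate block (105 higher), and 66 to 145 higher and 86 to 173 lower with 1 library left out, the fewest without PM 2, where 60 of the 123 and 81 of the 191 calls were shared. Tgfb1 reversed to −0.0859 with 2 UMIs of Foxp3, −0.24 with Cd4 required and −0.0664 without PM 2. PM against vehicle in Foxp3 cells gave 0 to 11 higher and 0 to 26 lower genes with 1 library left out, and none under the other settings. There Il2ra reversed to −0.22 with Cd4 required and ranged from −0.00209 (without vehicle 2) to 2.36 (without vehicle 1) with 1 library left out. Ikzf2 reversed to 0.0623 with 2 UMIs of Foxp3, 0.34 with 0 neutrophil UMIs, 0.18 without cells of over 8000 UMIs, 0.14 with no filter on low counts, 0.17 without PM 1, and ranged from −0.60 (without vehicle 2) to 0.87 (without vehicle 1). Ctla4 reversed to 0.20 without PM 1, and ranged from −1.06 (without PM 2) to 0.80 (without vehicle 1). In the other CD3 cells, higher and lower calls were 20 and 11 with 0 neutrophil UMIs, 6 and 7 without cells of over 8000 UMIs, 1 and 1 without CD8 cells, 8 and 26 with DESeq2, 166 and 232 with no filter, and 12 to 86 and 56 to 197 with 1 library left out. The difference of the PM effects gave 0 higher genes with 2 UMIs of Foxp3, with Cd4 required, without cells of over 8000 UMIs and with DESeq2, 2 with 0 neutrophil UMIs, and 0 to 8 higher and 0 to 6 lower with 1 library left out. Pglyrp1 there reversed to −0.53 with Cd4 required. The share among CD3 cells reversed (log2 ratio) to 0.12 with 0 neutrophil UMIs, 0.31 with Cd4 required and 0.0157 without CD8 cells. Of the values of single genes under all settings, 756 of the comparison of cell groups kept direction and call, 52 lost the call and 3 reversed. The calls of Tnfrsf1b, Cd6, Cd226, Lgals1 and Ccr7 were also lost with DESeq2, and those of Cd6, Lgals1, Ccr7, Klrc2, Klre1, Xcl1, Spry2, Jchain and Gzma with no replicate block. The causes were not tested.

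Libraries of the same number did not deviate together over genes (correlation −0.163 in Foxp3 cells and −0.134 in other CD3 cells). Each group gives only the contrast between its libraries, so these values cannot decide whether libraries were handled in pairs. With the replicate block, PM against vehicle gave 0 calls in Foxp3 cells, with Ikzf2 at 0.0309, and 15 higher and 30 lower in the other CD3 cells. With the pairing crossed, a choice made after seeing the data, it gave 0 calls in Foxp3 cells (Ikzf2 at 0.0289) and 146 higher and 246 lower in the other CD3 cells. Sums of 28237 to 130280 UMIs limited the tests of Foxp3 cells, where 2182 genes could be tested against 9943 in the other CD3 cells.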
